A study of Mus musculus with 30 samples.

Results

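The 6 h time point of an SPT16 depletion course in mouse embryonic stem cells is described here, as the gene comparison of the authors' deposited table for 6 h with the matching tables of 3 classes of noncoding transcript. Genes were taken where the mean normalised count in that table was above 0, which gave 18084 of 21859 genes, and 12534 of these carried an adjusted p-value. The noncoding tables held 11897 of 32253 PROMPTs, 11363 of 15438 eRNAs and 29476 of 70586 DHSs with a mean count above 0. Genes were called at an adjusted p below 0.05 in the authors' deposited table, and the same tables at 3 h and 12 h show which of them had been called earlier or were called again later.

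SPT16, encoded by Supt16, is the larger subunit of FACT, a histone chaperone that it forms with SSRP1. FACT loosens contacts between DNA and histones ahead of RNA polymerase II and helps to put nucleosomes back behind it, and in embryonic stem cells it has been linked both to transcription of pluripotency genes and to repression elsewhere. PROMPTs are short-lived antisense transcripts made upstream of promoters, eRNAs are transcripts of enhancers, and DHSs are DNase-hypersensitive sites, where open chromatin can be transcribed. TT-seq labels RNA with a short pulse of 4-thiouridine, so that introns and unstable transcripts are counted along with exons.

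The cells were E14 embryonic stem cells of the line with osTIR1, the plant F-box protein that targets an auxin-inducible degron, grown with LIF, CHIR99021, PD0325901 and serum. In SPT16_AID_V5 cells a mini-AID and V5 tag had been placed on Supt16, and 3-indole-acetic acid (3-IAA, 500 nM) drives loss of the tagged protein while ethanol (EtOH) is the vehicle. By their titles, the 6 libraries at 6 h form 3 groups of 2, namely SPT16_AID_V5 cells with 3-IAA for 6 h (Clone1 and Clone2), SPT16_AID_V5 cells with EtOH for 6 h (Clone1 and Clone2) and untagged cells with 3-IAA for 6 h. Each was pulsed with 4-thiouridine for 5 min. The tag and treatment fields of all 6 libraries give the tagged genotype and 3-IAA, and the protocol gives 24 h of treatment, so the groups rest on the titles alone. The authors' deposited tables do not name the groups compared or the direction, and they give no value per library. A change is therefore called positive or negative as signed there, with no statement of which cells were higher, and no SD or n can be given for it. The fold changes and their standard errors (SE) are the authors' own, on a log2 scale shrunken towards 0. The series holds 30 libraries, of which 22 belong to the time course and 8 to a washout experiment that supplies counts per library.

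The sequences of 7 promoters are shown because their genes carry the results: Nanos1, Atf5 and Fasn are positive calls, Zfp42 and Adam23 are negative calls, and H2aj and Pspc1 are the hosts of called PROMPTs. Each is the 250 bases before the RefSeq start (GRCm38.p6), 5′ to 3′ on the strand of the gene. Positions are chr19:60755737-60755986 (+) for Nanos1, chr7:44816659-44816908 (-) for Atf5, chr11:120824548-120824797 (-) for Fasn, chr8:43307010-43307259 (-) for Zfp42, chr1:63445641-63445890 (+) for Adam23, chr6:136807998-136808247 (+) for H2aj and chr14:56778319-56778568 (-) for Pspc1. Capitals mark every match, on either strand, to CCGCCC (the GC box core), CCAAT or TATAAA, and matches that overlap run together.
Nanos1: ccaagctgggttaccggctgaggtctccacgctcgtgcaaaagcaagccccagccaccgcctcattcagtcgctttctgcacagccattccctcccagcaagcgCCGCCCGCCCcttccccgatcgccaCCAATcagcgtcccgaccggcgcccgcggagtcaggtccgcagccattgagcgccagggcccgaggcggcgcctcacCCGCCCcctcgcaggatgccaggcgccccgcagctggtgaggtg
Atf5: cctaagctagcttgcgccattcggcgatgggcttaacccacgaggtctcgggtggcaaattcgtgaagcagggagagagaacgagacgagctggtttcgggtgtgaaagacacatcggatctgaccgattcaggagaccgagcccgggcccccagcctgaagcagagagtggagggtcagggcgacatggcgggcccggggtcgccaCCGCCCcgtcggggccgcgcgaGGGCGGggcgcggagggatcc
Fasn: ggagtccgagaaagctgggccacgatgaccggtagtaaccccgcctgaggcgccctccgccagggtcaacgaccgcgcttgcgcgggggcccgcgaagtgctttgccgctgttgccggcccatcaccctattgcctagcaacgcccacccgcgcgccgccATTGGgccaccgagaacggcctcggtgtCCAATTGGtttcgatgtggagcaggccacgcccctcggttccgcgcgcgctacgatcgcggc
Zfp42: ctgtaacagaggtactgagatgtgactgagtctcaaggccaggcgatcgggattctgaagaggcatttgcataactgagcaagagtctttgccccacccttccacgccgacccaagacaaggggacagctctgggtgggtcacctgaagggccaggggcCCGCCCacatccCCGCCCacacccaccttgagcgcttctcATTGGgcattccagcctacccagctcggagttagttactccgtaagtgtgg
Adam23: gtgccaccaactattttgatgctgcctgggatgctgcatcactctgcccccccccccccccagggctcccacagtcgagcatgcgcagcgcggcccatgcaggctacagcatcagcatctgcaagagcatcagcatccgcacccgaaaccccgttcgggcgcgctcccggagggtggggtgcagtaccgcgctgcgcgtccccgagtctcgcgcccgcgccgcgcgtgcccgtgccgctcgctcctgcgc
H2aj: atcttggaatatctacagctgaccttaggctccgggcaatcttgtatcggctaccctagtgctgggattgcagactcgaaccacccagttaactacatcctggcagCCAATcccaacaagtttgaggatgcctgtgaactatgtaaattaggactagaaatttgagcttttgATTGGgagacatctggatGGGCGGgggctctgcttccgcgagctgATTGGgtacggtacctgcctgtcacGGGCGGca
Pspc1: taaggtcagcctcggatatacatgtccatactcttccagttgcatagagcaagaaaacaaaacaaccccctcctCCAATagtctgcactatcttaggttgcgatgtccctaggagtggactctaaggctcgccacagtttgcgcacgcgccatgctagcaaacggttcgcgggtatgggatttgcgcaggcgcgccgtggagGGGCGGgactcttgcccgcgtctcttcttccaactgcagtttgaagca
The letters CCAAT occur in 34.5% of all 27025 upstream windows in the RefSeq table, CCGCCC in 32.9% and TATAAA in 3504 of them. Among the 10020 windows of genes tested at 6 h the shares are 37.0%, 60.4% and 5.98%. Nanos1 holds 3 matches to CCGCCC, of which 2 overlap, and 1 to CCAAT. Fasn holds 3 matches to CCAAT, of which 2 overlap on opposite strands. Atf5 holds 2 matches to CCGCCC, Zfp42 holds 2 to CCGCCC and 1 to CCAAT, and Adam23 holds none. The H2aj window has 3 matches to CCAAT and 2 to CCGCCC, and the Pspc1 window has 1 of each. TATAAA is in 0 of the 7 windows. A promoter entry was found for 309 of the 388 called genes.

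At 6 h the authors' deposited table called 214 genes positive (1.71% of 12534) and 174 negative (1.39%). Without adjustment, 2456 genes had a p below 0.05 in that table. Positive changes ran from 0.54 to 2.20 and negative changes from -2.62 to -0.45 on the log2 scale. Positive genes had a median mean count of 294 in the authors' deposited table, negative genes 1241 and genes not called 551. Just inside the threshold lay Aqp3 (0.81 ± 0.36 SE, adjusted p = 0.0498) and Zscan29 (0.62 ± 0.26, adjusted p = 0.0498), and just outside it Kmt2d (0.92 ± 0.42, adjusted p = 0.0506) and Dpagt1 (0.70 ± 0.31, adjusted p = 0.0507).

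**Figure D1:**
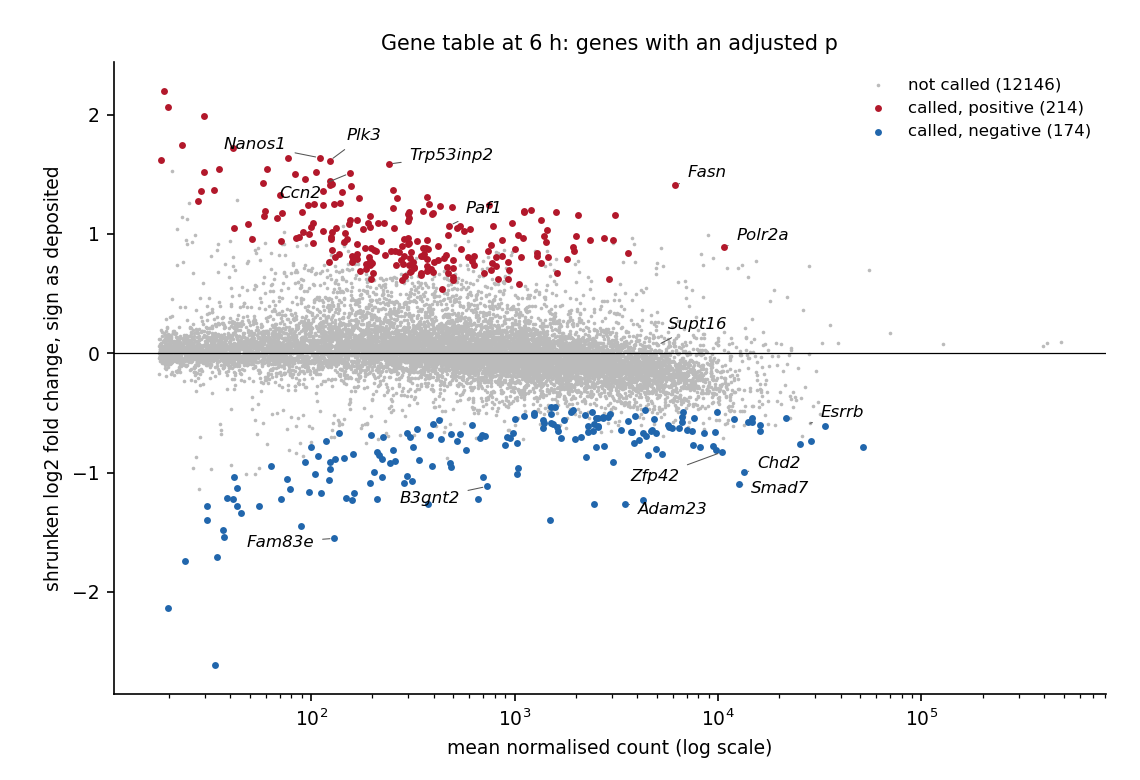
Log2 fold change at 6 h, as signed in the authors' deposited table, against the mean normalised count (log axis) for each gene with an adjusted p. The 214 positive and 174 negative calls are coloured, and genes that the text describes are named.

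The targeted gene and its partner were not called. Supt16, at a mean count of 5025, stood at 0.07 ± 0.17 (adjusted p = 0.774) at 6 h in the authors' deposited table, at 0.11 at 3 h and at 0.06 at 12 h. The degron acts on the protein, so the level of Supt16 RNA does not check the depletion. Ssrp1, the other FACT subunit, stood at 0.15 ± 0.23 (adjusted p = 0.466) at 6 h, after 0.73 ± 0.27 (adjusted p = 0.0507) at 3 h in the authors' deposited tables.

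Over all genes tested at 6 h, 1.71% were positive and 1.39% negative, and these shares stand beside each list count at 6 h below. Of the 6 core pluripotency factors 1 was called, and it was negative. Zfp42, which encodes the stem cell marker REX1 (chr8:43295063-43306980, mm10), had a mean count of 10440 and a change of -0.83 ± 0.21 (adjusted p = 0.00221) by the authors' deposited table. It stood at -0.12 at 3 h (adjusted p = 0.498) and at -1.85 ± 0.25 at 12 h (adjusted p = 9.51e-12) in the corresponding tables the authors deposited. Pou5f1 (-0.01), Sox2 (-0.08), Nanog (-0.14) and Sall4 (0.20) were not called at 6 h in the authors' deposited table. Nanog, a core factor of the naive state, was called at 12 h with -0.77 (adjusted p = 0.0284). Esrrb, an orphan nuclear receptor of the same network, stood at -0.59 ± 0.46 at 6 h (adjusted p = 0.113) and at -2.05 ± 0.35 at 12 h (adjusted p = 2.47e-08) by the authors' deposited tables.

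The wider naive network had 1 negative and 0 positive calls among 28 genes tested at 6 h, with a median change of -0.14, against 15 negative calls among 29 at 12 h, where 12.1% of all genes were negative in the authors' deposited tables. The 1 call was Manba, a lysosomal mannosidase, at -0.69 ± 0.30 (adjusted p = 0.0387). Among 18 formative and primed genes 3 were positive in the authors' deposited table. Lefty1, a Nodal antagonist with a low mean count of 60.7, stood at 1.55 ± 0.43 (adjusted p = 0.00395) and at 2.75 at 12 h. Pim2, a serine/threonine kinase, stood at 1.36 ± 0.37 (adjusted p = 0.00382), and Sall2, a zinc finger protein, at 1.24 ± 0.35 (adjusted p = 0.0044) by the authors' deposited table. Cell markers fitted the labelled cell type: core factors summed to a mean count of 61980 and fibroblast and feeder markers to 37.9, with 0 of the latter reaching a test. Among 18 primitive endoderm markers the summed mean count was 10498, of which Lama1 held 7246, with Afp listed at 0. The 15 neural markers summed to 4617, of which Ncam1 held 4109, with Hes5, Neurod1 and Tubb3 listed at 0. The 17 trophoblast markers summed to 1157, with Prl3d1 and Tpbpa listed at 0, and the 12 mesoderm markers to 483, with Foxf1 and Mesp1 listed at 0. Of these 4 lists 10, 5, 8 and 4 genes were tested and 0 were called in the authors' deposited table, and the part of such cells in the results was not tested.

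Positive genes had several roles. Nanos1 (chr19:60755987-60759914, mm10), an RNA-binding translational repressor of the germline and a gene of a single exon, stood at 1.64 ± 0.32 (adjusted p = 0.000123) with a mean count of 110 in the authors' deposited table. It had been at 0.08 at 3 h (adjusted p = 0.431) and stayed at 1.83 ± 0.44 at 12 h (adjusted p = 0.000114). Ccn2 (chr10:24595442-24598683), a matricellular protein and a target of YAP, stood at 1.51 ± 0.35 (adjusted p = 0.000619), after 0.09 at 3 h and before 3.57 ± 0.39 at 12 h (adjusted p = 1.83e-17) by the authors' deposited tables. Dkk1, a secreted Wnt antagonist with a mean count of 29.8, stood at 1.52 ± 0.56 (adjusted p = 0.0203) and reached 4.52 at 12 h. Acap3, a GTPase-activating protein for ARF6, stood at 1.52 ± 0.33 (adjusted p = 0.000296).

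Genes of the p53 and stress lists gave few calls. Of 26 tested genes of the p53 list 2 were positive and 1 negative in the authors' deposited table. Plk3, a polo-like kinase of the stress response (chr4:117128655-117133963), stood at 1.61 ± 0.45 (adjusted p = 0.00382), and Trp53inp2, an autophagy factor (chr2:155381059-155389850), at 1.58 ± 0.32 (adjusted p = 0.000138). Aen, an apoptosis-enhancing nuclease, was negative at -0.59 ± 0.20 (adjusted p = 0.0199) by the authors' deposited table. Of 26 integrated stress response genes 2 were positive, Atf5 (chr7:44812256-44816658) at 1.37 ± 0.27 (adjusted p = 0.000123) and Shmt2, the mitochondrial serine hydroxymethyltransferase, at 1.09 ± 0.40 (adjusted p = 0.0247). ATF5 is a transcription factor whose translation rises in stress. Apart from Atf5 and Shmt2 no member of that list was called, and the median change of the list was 0.01 in the authors' deposited table. Whether stress had a part in these calls was not tested. The list of heat shock chaperones gave 0 calls among 15 tested at 6 h and 4 positive calls among 14 at 3 h, where 0.531% of all genes were positive in the authors' deposited tables. At 12 h it gave 3 positive and 1 negative calls among 16, where 8.58% of all genes were positive and 12.1% negative. Chaperone genes outside that list, named after their values were seen, were positive at 6 h: Hspa2, of the HSP70 family, at 1.503 ± 0.46 (adjusted p = 0.00784) and Hyou1, of the endoplasmic reticulum, at 0.94 ± 0.33 (adjusted p = 0.0201) by the authors' deposited table. Hspa2 stood at 1.16 at 3 h, without an adjusted p, and at 3.02 at 12 h (adjusted p = 7.97e-12). Hyou1 stood at 0.47 at 3 h and at 0.69 at 12 h (adjusted p = 0.117) by the authors' deposited tables.

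Metabolic genes included Fasn, the fatty acid synthase (chr11:120805846-120824547), with a mean count of 6143 and a change of 1.41 ± 0.42 (adjusted p = 0.00722) by the authors' deposited table. It stood at 0.48 ± 0.32 at 3 h (adjusted p = 0.165) and at -0.00 ± 0.34 at 12 h (adjusted p = 0.991), so that it was called at 6 h only. Elovl1, a fatty acid elongase, stood at 1.44 ± 0.38 (adjusted p = 0.00283), and Pnpla2, the adipose triglyceride lipase, at 1.40 ± 0.40 (adjusted p = 0.00488) by the authors' deposited table. Fasn was the 1 call among 23 genes of the list of sterol and lipid synthesis. Of 22 genes of amino acid sensing by mTORC1 2 were positive. Castor1, the arginine sensor, stood at 1.26 ± 0.40 (adjusted p = 0.0106) and Tsc2, a subunit of the complex that inhibits mTORC1, at 0.80 ± 0.32 (adjusted p = 0.037) by the authors' deposited table.

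Genes of elongation and chromatin were called in both directions at 6 h, when 1.71% of all genes were positive and 1.39% negative. Of 23 genes of the elongation and PAF list 2 were positive in the authors' deposited table. Paf1, a subunit of the polymerase-associated PAF complex, stood at 1.07 ± 0.22 (adjusted p = 0.000138), and Supt6, which encodes the histone chaperone SPT6, at 0.62 ± 0.24 (adjusted p = 0.0346). Supt6 stood at 0.51 (adjusted p = 0.189) at 12 h, while Paf1 was called again at 1.16 ± 0.51 (adjusted p = 0.021) by the authors' deposited table. Among 19 further histone chaperones 0 were called in either direction. Chosen after their values were seen, Polr2a, the largest subunit of RNA polymerase II, stood at 0.89 ± 0.39 (adjusted p = 0.0476), the Integrator subunit Ints1 at 1.18 ± 0.41 (adjusted p = 0.0175) and the Mediator subunit Med12 at 1.06 ± 0.37 (adjusted p = 0.0193) by the authors' deposited table. Among 19 Polycomb genes 1 was positive and 2 negative. Cbx2, a reader of the Polycomb mark, stood at 0.92 ± 0.33 (adjusted p = 0.021), Eed, a core subunit of PRC2, at -0.63 ± 0.19 (adjusted p = 0.00851) and Mtf2, a PRC2 accessory factor, at -0.55 ± 0.17 (adjusted p = 0.0123). Chd2, a chromatin remodeller, stood at -0.998 ± 0.27 (adjusted p = 0.00382) and was the 1 call among 20 remodeller genes. At 12 h 8 of the 20 were negative, where 12.1% of all genes were negative in the authors' deposited tables.

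Negative genes included signalling inhibitors and surface proteins. Smad7, an inhibitory SMAD of the TGF-beta family, had a mean count of 12625 and stood at -1.10 ± 0.33 (adjusted p = 0.00548), then at -2.25 ± 0.40 at 12 h (adjusted p = 1.34e-07) by the authors' deposited tables. Of 15 genes of FGF and ERK feedback 2 were negative, Spred1, an inhibitor of RAS signalling, at -0.79 ± 0.27 (adjusted p = 0.0171) and Fgfr2, an FGF receptor, at -0.54 ± 0.19 (adjusted p = 0.0255). Itga9, an integrin subunit (chr9:118606690-118901003), stood at -1.39 ± 0.42 (adjusted p = 0.00548), and Adam23, a membrane protein of the ADAM family (chr1:63445891-63596276), at -1.26 ± 0.39 (adjusted p = 0.00553) by the authors' deposited table. Ccr4, a chemokine receptor, stood at -1.27 ± 0.26 (adjusted p = 0.000123) and B3gnt2, a glycosyltransferase, at -1.12 ± 0.22 (adjusted p = 0.000123). Fam83e stood at -1.55 ± 0.35 (adjusted p = 0.000449), and Snhg4, a small nucleolar RNA host gene, at -1.23 ± 0.29 (adjusted p = 0.000619) by the authors' deposited table. Rps15a, a protein of the small ribosomal subunit, was the 1 call among 80 ribosomal protein genes, at -0.85 ± 0.21 (adjusted p = 0.00115). Immediate early genes gave 0 calls among 16 tested at 6 h, and 9 positive calls among 21 tested at 12 h, where 8.58% of all genes were positive in the authors' deposited tables.

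Over the 35 lists together, 584 distinct genes were tested, of which 18 were positive (3.08%) and 10 negative (1.71%) by the authors' deposited table, against 1.71% and 1.39% of all genes. The lists were chosen with earlier results of these data known, so setting these shares side by side is no test of the lists. Calls were spread over 18 lists, with at most 3 in any list, and 17 lists had 0. The lists without a call included LIF and STAT3 genes, BMP and Id genes, DNA methylation enzymes, G1/S and G2/M cell cycle genes and aryl hydrocarbon receptor targets. Single calls in others were H3c13, a replication-dependent histone gene whose near-identical copies make its count uncertain (1.35 ± 0.52, adjusted p = 0.026), and Hoxc13, a Hox cluster gene (0.75 ± 0.30, adjusted p = 0.037) by the authors' deposited table.

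The authors' deposited tables called 58 genes positive (0.531% of 10920) and 5 negative (0.0458%) at 3 h, and 1366 positive (8.58% of 15917) and 1932 negative (12.1%) at 12 h. These tables may share control libraries, since their groups are not given, so only the values of each are set side by side. The median SE of genes not called was 0.119 at 3 h, 0.195 at 6 h and 0.332 at 12 h. These are SEs of shrunken changes, so they also carry the shrinkage of each table and do not rank the tables by precision. Egr3, with a mean count of only 0.226 at 6 h, had SEs of 0.124, 0.213 and 0.488 at these times. The lowest mean count with an adjusted p was 84.3, 17.9 and 1.30. Between the tables no test of the difference in a gene's change could be made, so "first called at 6 h" describes thresholds, not a difference. Of the 388 genes called at 6 h, 33 had no adjusted p at 3 h.

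Of the 214 positive genes, 6 had also been called at 3 h, 80 were first called at 6 h and again at 12 h, and 128 (59.8%) were called at 6 h only in the authors' deposited tables. Of the 174 negative genes, 1 had been called at 3 h, 145 (83.3%) were first called at 6 h and again at 12 h, and 28 (16.1%) were called at 6 h only. At 12 h 0 genes were called with the opposite sign. The positive genes of 6 h only had median changes of 0.17, 0.93 and 0.44 at 3, 6 and 12 h, and those called again had 0.07, 0.96 and 1.26 in the authors' deposited tables. Negative genes called again had medians of -0.07, -0.70 and -1.42, and those of 6 h only -0.07, -0.93 and -0.48. Genes not called at 6 h had medians of -0.003, -0.005 and -0.04. The change was larger at 12 h than at 6 h for 65 of the 80 positive and 141 of the 145 negative genes that were called again, and for 4 of the 128 and 2 of the 28 genes of 6 h only. Membership of a class fixes part of that pattern, since the class was set by the calls at 12 h. The gene tables also differ in how far changes were shrunken, so sizes at 3, 6 and 12 h are not on the same scale. Growth of a change over time was therefore not tested.

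**Figure D2:**
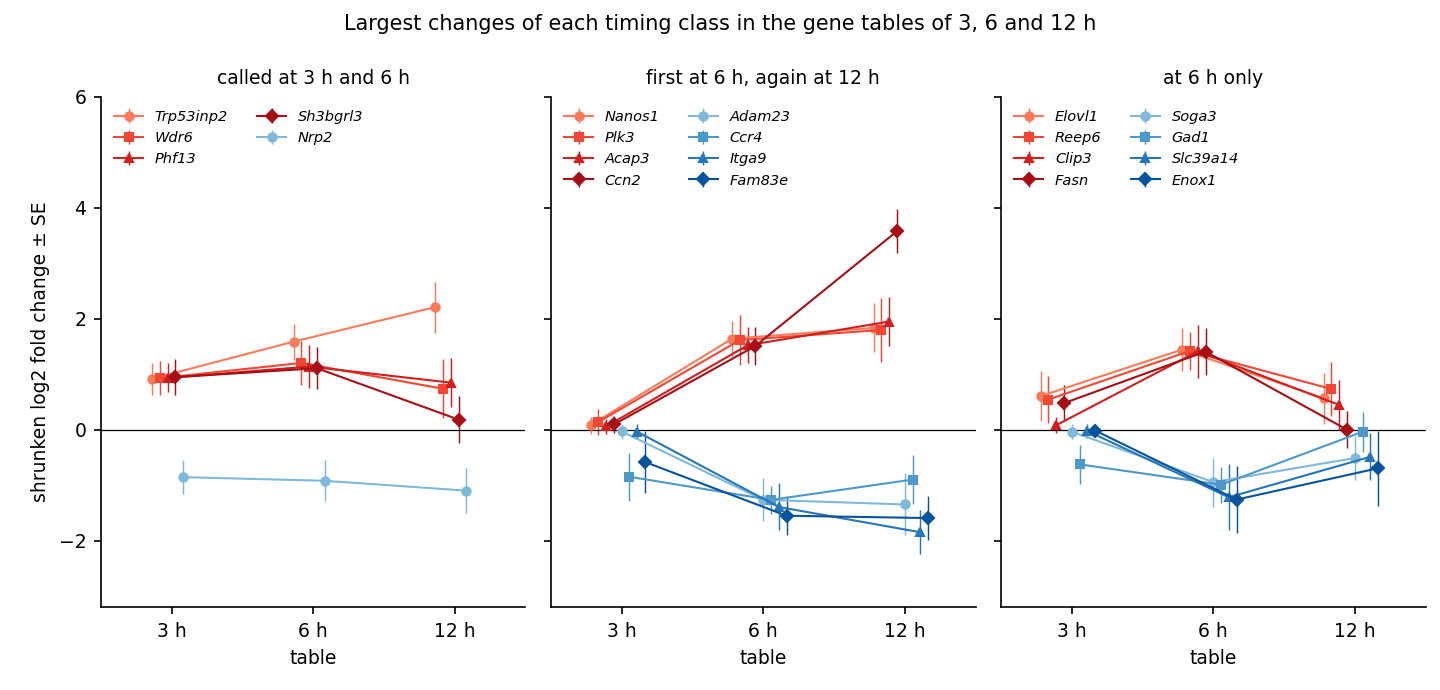
Shrunken log2 fold changes ± SE of the genes with the largest changes at 6 h in each timing class, limited to mean counts of 100 or more and leaving out predicted genes (Gm or Rik names), at 3, 6 and 12 h, as signed in the authors' deposited tables (red lines positive, blue lines negative at 6 h). Ccn2 runs from 0.09 to 1.51 to 3.57, while Fasn reaches 1.41 at 6 h and returns to -0.00 at 12 h.

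The genes called at both 3 h and 6 h were Trp53inp2, Wdr6, Phf13, Sh3bgrl3, Aqp3 and Ctsa on the positive side and Nrp2, a neuropilin co-receptor, on the negative side. Wdr6, a WD repeat protein involved in tRNA methylation, stood at 0.93 ± 0.30 at 3 h (adjusted p = 0.041), 1.20 ± 0.40 at 6 h (adjusted p = 0.0155) and 0.74 at 12 h (adjusted p = 0.119) by the authors' deposited tables. Phf13, a PHD finger protein that reads a histone mark, stood at 0.93 ± 0.26 (adjusted p = 0.0408), 1.14 ± 0.39 (adjusted p = 0.0163) and 0.85 (adjusted p = 0.0548). Nrp2 stood at -0.86 ± 0.31, -0.92 ± 0.37 and -1.10 ± 0.41 at the 3 times, and each passed the threshold in the authors' deposited table. Read from the other side, 6 of the 58 positive calls (10.3%) and 1 of the 5 negative calls (20%) of 3 h were also called at 6 h. Of the calls at 12 h, 82 of 1366 (6.003%) positive and 146 of 1932 (7.56%) negative ones were already called at 6 h. A p below 0.05 with the same sign at 3 h, without adjustment, was found for 98 of the 214 positive and 47 of the 174 negative genes in the authors' deposited tables.

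Genes of 6 h only included, beside Fasn, Elovl1 (0.56 at 12 h, adjusted p = 0.189), Reep6, an endoplasmic reticulum shaping protein (1.42 ± 0.34 at 6 h and 0.73 at 12 h), and Clip3, a microtubule-linking protein (1.41 ± 0.48 and 0.44), in the authors' deposited tables. Among the negative ones were Enox1, a surface oxidase (-1.26 ± 0.61, adjusted p = 0.0366, and -0.70 at 12 h), and Slc39a14, a zinc and manganese transporter (-1.22 ± 0.59, adjusted p = 0.0372, and -0.49 at 12 h). Gad1, glutamate decarboxylase, stood at -0.99 ± 0.32 (adjusted p = 0.0114) at 6 h and at -0.04 at 12 h, and it had been called at 0 h too, at -1.13 in the authors' deposited table. Its call at 6 h therefore has a call of the same sign before any treatment.

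Positive and negative genes differed in structure. In the GENCODE M21 annotation of mm10, exons took a median of 43.6% of the gene body in positive genes, 12.9% in negative genes and 16.8% in genes not called. The median gene body was 10.0 kb, 31.8 kb and 28.3 kb long. Itga9 (2.61% exonic, 294 kb) and Fasn (58.5% exonic, 18.7 kb) are examples of each end. When the tested genes were divided into 5 equal bins from the lowest to the highest exonic share, 0.20%, 0.24%, 0.56%, 2.43% and 5.11% were called positive, which is 5, 6, 14, 61 and 128 genes. Negative calls took 2.03%, 1.60%, 1.32%, 1.44% and 0.52% of the same bins in the authors' deposited table. Of the 58 positive calls at 3 h 46 lay in the highest bin, and at 12 h positive calls took 7.86%, 5.85%, 6.73%, 9.81% and 12.7% of the bins and negative calls 17.5%, 17.5%, 13.5%, 9.15% and 3.05%.

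Mean count moved with exonic share, since the highest bin had a median mean count of 256 and the lowest 590 in the authors' deposited table. Gene length moved with exonic share too. The median gene body at 6 h fell from bin to bin, from 133 kb in the lowest bin to 6.29 kb in the highest. Within genes of low, middle and high mean count, in that order, positive calls took 5.07%, 5.84% and 3.32% of genes in the highest bin of exonic share and 0.31%, 0.36% and 0.00% in the lowest. Negative calls took 0.50%, 0.11% and 1.66% in the highest bin and 1.66%, 2.34% and 2.23% in the lowest. They did not fall steadily in genes of high mean count, where bin 4 had 3.03%, above both ends. The sign of the change followed the order of the bins among all tested genes: 24.3%, 32.5%, 46.6%, 61.4% and 79.1% of the bins had a positive value in the authors' deposited table. The part of mean count in these shares was not tested beyond these 3 count ranges. The part of gene length was not tested, so these bins do not separate exonic share from length.

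**Figure D3:**
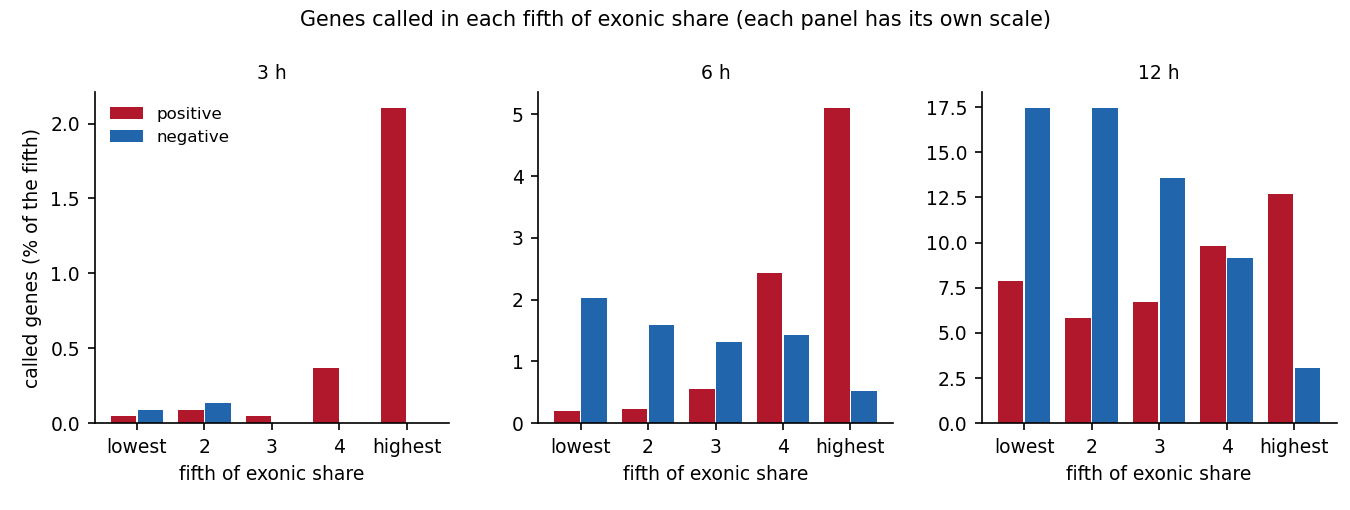
Bars give the percent of tested genes called positive (red) and negative (blue) in 5 equal bins of exonic share of the gene body, in panels for 3, 6 and 12 h that each have their own scale, from the authors' deposited tables. At 6 h positive calls run from 0.20% in the lowest bin to 5.11% in the highest.

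Called genes lay on every autosome and on X. Chromosome 11 had 31 positive calls of 1009 genes tested (3.07%), chromosome 16 had 1 of 404, and chromosome 18 had 9 negative calls of 317 (2.84%) by the authors' deposited table. Within 50 kb of each other lay 33 pairs of called genes, of which 25 had the same sign, among them Rfng and Fasn, Vamp2 and Per1, Slc5a6 and Cad, and Mxra8 and Acap3. No matching count of pairs over all tested genes is given here, so grouping of called genes along chromosomes was not tested. In 3 pairs the genes overlap and have opposite signs. Atf5 (1.37) overlaps Il4i1, an amino acid oxidase gene on the opposite strand, at -1.07 in the authors' deposited table. Map3k12 (0.54) overlaps Gm10337 (-1.48), and Gng3 (1.17) overlaps Gm50139 (-0.97). How reads of such pairs were divided in these tables is not given in the sources used here, so their values are uncertain.

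Among the noncoding transcripts, PROMPTs gave the fewest calls. PROMPTs gave 4 positive calls (0.122% of 3292) and 0 negative (0%) by the authors' deposited table, against 140 and 113 at an unadjusted p below 0.05. All 4 had mean counts under 20. The PROMPT of H2aj, a histone gene, stood at 2.13 ± 0.55 (mean count 17.1, adjusted p = 0.0102), that of Ier2 at 2.10 ± 0.58 (16.6, adjusted p = 0.0187) and that of Pspc1 at 2.03 ± 0.62 (11.6, adjusted p = 0.0446) by the authors' deposited table. Those of H2aj and Ier2 were called again at 12 h, at 1.82 and 2.01. These host genes were not called at 6 h: H2aj stood at -0.03, Ier2 at 0.15 and Pspc1 at -0.27 in the authors' deposited table. In the other direction, PROMPTs of called genes were tested for 40 of the 214 positive and 37 of the 174 negative genes, and 0 were called.

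Enhancer transcripts had 137 positive calls (6% of 2285) and 21 negative (0.919%) by the authors' deposited table. Positive changes had a median of 1.24 and ran from 0.83 to 2.48. Of the 137, 36 were already called at 3 h, 6 were first called at 6 h and again at 12 h, and 95 were called at 6 h only in the authors' deposited tables. Only 104 of the 137 had an adjusted p at 3 h, when 78 eRNAs in all were called positive. Without adjustment, 91 of the 137 had a p below 0.05 with the same sign at 3 h in the authors' deposited tables. The median change of the 137 was 0.19 at 3 h, 1.24 at 6 h and 0.43 at 12 h. ENH12598 stood at 1.03 at 3 h, 1.98 ± 0.47 at 6 h (adjusted p = 0.000608) and 0.37 at 12 h, and ENH1335, with a mean count of 207, at 0.91, 1.83 ± 0.38 (adjusted p = 9.49e-05) and 0.14. Negative eRNAs had a median of -1.03 at 6 h and -1.30 at 12 h, and 9 of the 21 were called again at 12 h in the authors' deposited tables. ENH4278 stood at -0.89 ± 0.41 at 6 h (adjusted p = 0.0369) and at -1.92 at 12 h (adjusted p = 0.00208).

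DNase-hypersensitive sites had 48 positive calls (1.36% of 3530) and 34 negative (0.963%) by the authors' deposited table. Again called at 12 h were 14 of the positive and 24 of the negative sites, with the same sign. Of the 48, 0 had been called at 3 h, when 4 sites were called positive and 0 negative among all sites. A missing call at 3 h therefore does not date the change. DHS430 stood at 0.98 at 3 h (adjusted p = 0.992), at 1.77 ± 0.33 at 6 h (adjusted p = 2.47e-05) and at 0.02 at 12 h. DHS158357 stood at 4.31e-06, 1.64 ± 0.35 (adjusted p = 0.000213) and 2.28 at the same times in the authors' deposited tables. DHS190194, with a mean count of 244, stood at -1.34 ± 0.33 (adjusted p = 0.00159) and at -1.88 at 12 h. The tables give no position for any eRNA or DHS, so they are not tied to genes here.

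**Figure D4:**
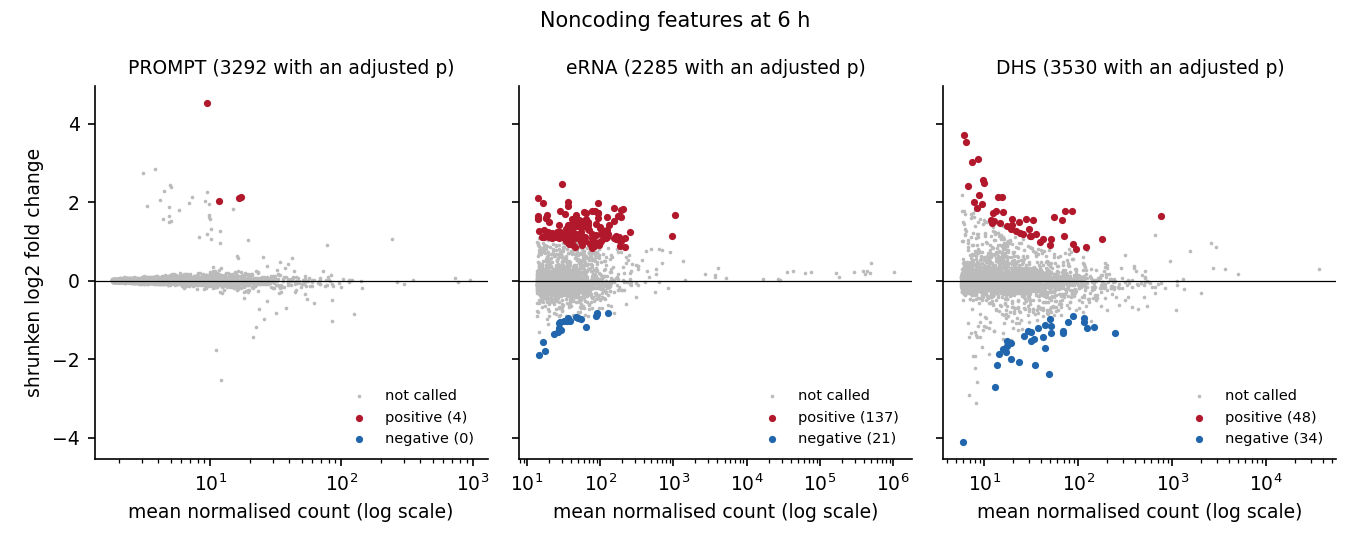
Shrunken log2 fold change at 6 h against mean normalised count (log axis) for each PROMPT, eRNA and DHS with an adjusted p, as signed in the authors' deposited tables, with positive calls in red and negative calls in blue. The 137 positive eRNAs outnumber the 21 negative ones, and PROMPTs have 4 positive calls.

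The washout experiment gave values per library for the genes called at 6 h. SPT16_AID_V5 lines 10E and 11D had received IAA or EtOH for 12 h and then recovered for 24 h, with 2 libraries for each line and treatment. The labels do not say which line is Clone1 or Clone2. Libraries held 6.55 to 16.6 M counts, and 10 loci of ribosomal RNA-like sequence, chosen after their values were seen, took 7.30% to 11.6% of counts in EtOH and 30.5% to 41.5% in IAA libraries. Depth outside these loci thus moved with treatment. With these loci left out of the library size, 60 of the positive and 25 of the negative genes were called in either direction, against 57 and 26 with them. Over all 15110 genes tested with edgeR's quasi-likelihood test at a Benjamini-Hochberg FDR of 0.05, 1334 (8.83%) were higher and 1149 (7.6%) lower in IAA.

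Of the 214 positive genes 209 were tested, and 55 (26.3%) were higher and 2 (0.957%) lower in IAA, with a median log2 change of 0.29 against -0.05 over all genes. Of the 174 negative genes 169 were tested, and 3 (1.78%) were higher and 23 (13.6%) lower, with a median of -0.30. Leaving out replicate 1 of IAA in line 10E, the shallowest library, left 35 of the positive and 11 of the negative genes called in either direction, from 57 and 26. Without replicate 2 of EtOH in line 10E 17 negative genes were called. By timing, 26 of 77 positive genes first called at 6 h and again at 12 h were higher (33.8%), and 27 of 126 of 6 h only (21.4%). Among negative genes called again 22 of 141 (15.6%) were lower and 0 higher, and among those of 6 h only 1 of 27 was lower and 3 were higher.

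Plk3 was at 4.40, 4.79, 2.90 and 2.82 CPM in the EtOH libraries (10E replicates 1 and 2, then 11D replicates 1 and 2) and at 15.1, 10.0, 10.1 and 8.54 in the IAA libraries in the same order. The groups did not overlap, and the means of 3.73 ± 1.02 and 10.9 ± 2.85 (SD, n = 4) gave a log2 change of 1.54 ± 0.28 (edgeR FDR = 0.00377). Supt6 was at 73.1, 61.9, 67.9 and 62.3 CPM in EtOH and at 214, 168, 119 and 112 in IAA, again without overlap and higher in line 10E. Its log2 change was 1.20 ± 0.21 (edgeR FDR = 0.00315). Wdr6 was at 22.7, 21.5, 17.1 and 16.2 CPM in EtOH and at 54.8, 41.8, 35.7 and 37.6 in IAA. All 4 IAA libraries lay above all EtOH libraries, with a log2 change of 1.13 ± 0.19 (edgeR FDR = 0.00274).

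Dkk1 was at 0.309, 0.184, 0.274 and 0.047 CPM in EtOH and at 5.87, 4.21, 3.22 and 2.55 in IAA, with a log2 change of 4.27 ± 0.52 (edgeR FDR = 0.000406). Every IAA library lay above every EtOH library, whose values rest on few counts. Paf1 (1.27 ± 0.25, edgeR FDR = 0.00692), Pim2 (1.34 ± 0.29, 0.0103), H3c13 (1.20 ± 0.27, 0.012), Hoxc13 (0.84 ± 0.21, 0.0183), Tsc2 (0.78 ± 0.20, 0.021) and Acap3 (0.99 ± 0.28, 0.0317) were also higher in IAA by edgeR, with no overlap between the 4 libraries of each group. The 2 positive genes that were lower were Gstm1, a glutathione transferase named after its values were seen, and Cbx2. Cbx2 was at 17.6, 29.6, 13.7 and 16.1 CPM in EtOH and at 11.9, 6.31, 9.16 and 10.5 in IAA (-1.03 ± 0.28, edgeR FDR = 0.0242), and the groups did not overlap.

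Enox1 was at 43.9, 14.4, 45.6 and 23.1 CPM in EtOH and at 267, 422, 60.0 and 66.9 in IAA. It was higher by 2.69 ± 0.66 (edgeR FDR = 0.0229) on the log2 scale, by 3.56 within line 10E and 0.88 within line 11D, while it was negative at 6 h in the authors' deposited table. Slc39a14 was at 5.48, 3.27, 5.26 and 3.20 CPM in EtOH and at 55.2, 43.1, 19.9 and 15.1 in IAA (2.95 ± 0.40, edgeR FDR = 0.0011). Soga3, the third of these, had log2 changes of 2.34 in line 10E and 0.72 in line 11D (1.84 ± 0.46 over both, edgeR FDR = 0.0195). Across all genes tested, the interaction of line and treatment passed the FDR for 0 genes.

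Snhg4 was at 373, 337, 355 and 235 CPM in EtOH and at 156, 133, 212 and 248 in IAA, with a log2 change of -0.79 ± 0.22 (edgeR FDR = 0.0303). The groups overlapped in line 11D. Zfp42 was at 331, 277, 346 and 333 CPM in EtOH and at 244, 273, 350 and 343 in IAA, and its log2 change of -0.09 ± 0.17 did not pass (edgeR FDR = 0.762). Further genes described above did not pass either, with log2 changes of 0.74 ± 0.25 for Fasn (edgeR FDR = 0.0579), 0.94 ± 0.38 for Ccn2 (0.109), 0.76 ± 0.37 for Adam23 (0.183), 0.27 for Atf5 (0.604) and -0.51 for Smad7 (0.323). Supt16 itself was at 56.8, 77.0, 84.9 and 90.2 CPM in EtOH and at 116, 131, 109 and 91.3 in IAA, a log2 change of 0.53 ± 0.18 (edgeR FDR = 0.0658).

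**Figure D5:**
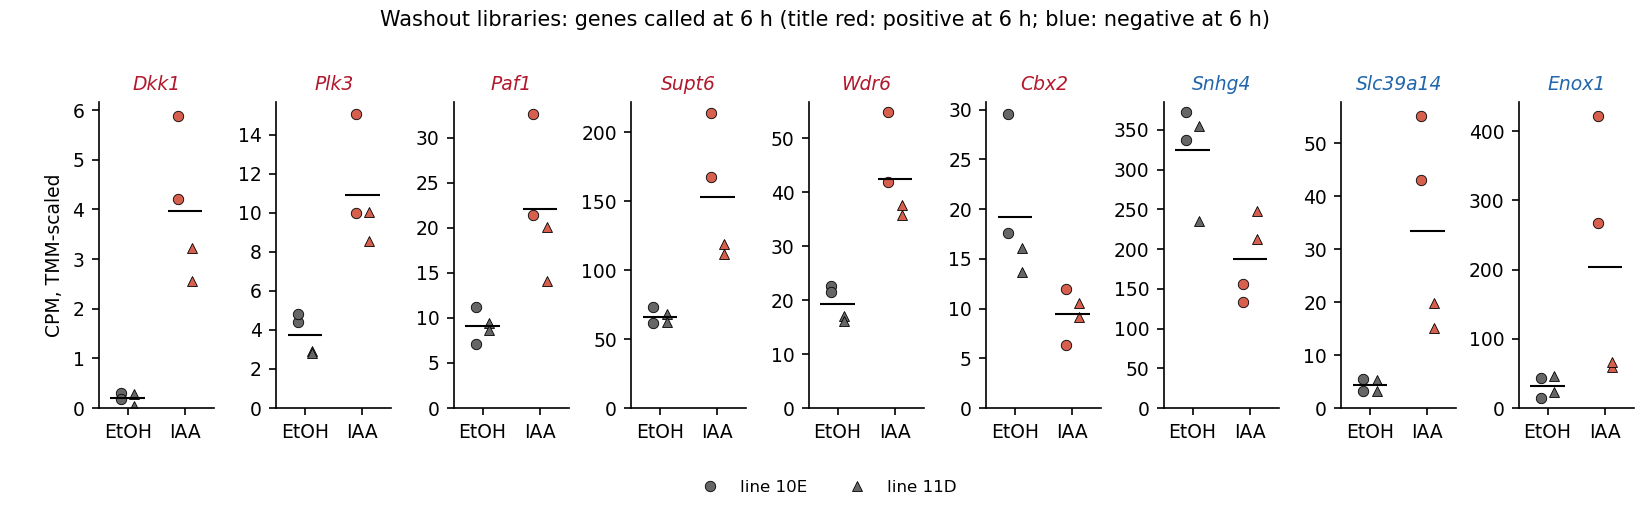
CPM (TMM-scaled, linear axes from 0, 1 scale per gene) of 9 genes called at 6 h in the 8 washout libraries, with circles for line 10E, triangles for line 11D and a bar at each mean. The IAA libraries of Plk3, Supt6, Wdr6 and Slc39a14 lie above all EtOH libraries, those of Cbx2 lie below, and those of Snhg4 overlap.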

How the data were processed

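TT-seq libraries of the 6 h groups and the washout were used, grouped by sample title. Members and gene lists were chosen with earlier results of these data known. For the time course the authors deposited 1 table per time and feature class with a mean normalised count over libraries (a signal, not raw reads), a log2 fold change with its SE, and a p-value with its adjusted p-value; 16 tables were used. STAR, deepTools and the build mm10 are named, with no versions, in the submitters' processing notes. The washout read counts were made with featureCounts 2.0.1 on the reverse strand over whole genes, per the file headers. A further 0 columns of other series were found.

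Washout counts were tested in R 4.3.3 with edgeR 4.0.16 (TMM, filterByExpr, quasi-likelihood, two-sided, FDR 0.05), with DESeq2 1.42.0 as an alternative, and the scripts were tested on simulated data. In simulated washout counts, 50.5% of the genes given a set change were recovered, with 7 false calls. The set changes all had a single size, up or down, and were given only to genes above a floor of mean CPM. Recovery of genes with lower counts or smaller changes was not measured. A gene that did not pass in the washout may therefore still differ. CPM used TMM-scaled totals. Totals ran from 6.55 to 16.6 M counts, and every pair of replicates differed by more than sampling noise (chi-square divided by its degrees of freedom 13.9 to 49.8). Separate cultures are not stated for the replicates, and a p-value then reflects only how far these libraries spread, which may be technical. The lines occur in both treatments and so pair libraries by design. The SE and FDR printed for a gene's change in IAA come from a fit that leaves line out. Fits with line as a block are given only as counts of calls.

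Named genes were the 12 most positive and 12 most negative called genes whose mean count reached 100, the 6 with the smallest adjusted p, called list members, FACT and core factors, 2 genes on each side of the threshold and the 4 largest per timing class; noncoding features needed a mean count of 50, except the PROMPTs. Predicted genes (Gm or Rik names) were left out of the ranked choices. Annotation (GENCODE M21) matched 21817 of 21859 genes. 1 called PROMPT is not reported here.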

Additional observations from a re-analysis of the deposited data

Results flagged for a closer look

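In the washout, replicate 1 of IAA in line 10E held 6.55 M counts, the lowest of the 4 IAA libraries, while the others held 10.5 to 10.98 M. Replicate 1 of IAA in line 11D had 30.5% of its counts in ribosomal RNA-like loci, while the other IAA libraries had 40.3% to 41.5%. Each of these stands farther from the rest than Dixon's 95% critical value allows for 4 samples, and chance flags about 1 in 20 of the 46 groups examined. Nanos1 moved in opposite directions in the lines: it was at 6.02 and 6.36 CPM in EtOH and 5.48 and 4.21 in IAA in line 10E, and at 2.90 and 4.28 in EtOH and 8.65 and 7.32 in IAA in line 11D. The log2 change of the mean CPM was -0.35 in line 10E and 1.13 in line 11D. The interaction that edgeR fitted to the counts was 1.51 (line 11D minus line 10E, FDR = 0.276).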

How the results depend on the processing

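Of the settings tried on counts of calls, 37 left the count within 1.5 times and 19 moved it. At an adjusted p below 0.01 the gene table gave 52 positive and 50 negative calls, and below 0.1 it gave 421 and 327, against 214 and 174. First calls, 208 positive and 173 negative, became 378 and 322 below 0.1, and 116 positive when the 3 h table had to show an unadjusted p of at least 0.05. Calls shared with 12 h, 82 positive and 146 negative, became 17 and 44 below 0.01. PROMPTs gave 9 calls below 0.1 and 2 with adjustment over every feature, against 4. Adjustment over every feature also left 56 of 158 eRNA calls and 19 of 82 DHS calls, and DHSs gave 152 below 0.1. For the washout, without a filter on low counts 44 of the negative genes were called, against 26. With line and replicate number as a replicate block 44 positive and 17 negative genes were called, against 57 and 26, and deviations of same-numbered libraries correlated at -0.0136 in line 10E and -0.172 in line 11D. With that number crossed in line 11D, an alternative chosen after seeing the data, the block gave 53 and 21 calls. With line alone as the block the counts were 60 and 25, and with DESeq2 69 and 35. Leaving out 1 library at a time gave 35 to 64 calls among positive genes and 11 to 28 among negative ones. The cause of these moves was not tested. The time-course tables give no libraries to leave out, and their depth per library is unknown.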
